A study of Mus musculus with 4 samples.

Results

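The glucocorticoid system of the mouse pituitary was followed through 8 genes of the 55357 in the count matrix. The set was given by name: the receptor genes Nr3c1 and Nr3c2, the activating enzyme gene Hsd11b1, and the response genes Fkbp5, Tsc22d3, Sgk1, Cebpd and Zbtb16. Whole pituitaries were profiled as 10x 3′ single-cell libraries in 2 groups, with 2 libraries of high-fat diet (HFD) mice and 2 libraries of normal diet (ND) mice. All mice were male and aged 4 weeks when the 12 weeks of feeding began. Each library holds 3 pituitaries pooled into a single sample, minced and digested with enzymes. Strain is not given in the labels. The labels also give every library the cell line Lbt2 and the cell type gonadotroph. Only 1.84% of the kept cells had the marker genes of gonadotrophs, and the cells were treated here as whole gland.

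All cells lie in 1 matrix, and their barcodes end in a number from 1 to 4 that no label or header ties to a library or diet. The numbers are called sets 1 to 4 here. HFD and ND cells cannot be told apart, so the diets were not compared. The sets are unlabelled and are not replicates of a group, so no test was run. A 95% interval beside a level is an exact Poisson interval and covers counting error only.

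Glucocorticoids are steroid hormones of the adrenal cortex. They enter cells and bind the glucocorticoid receptor, encoded by Nr3c1, which rests in the cytoplasm with heat shock proteins and then acts on genes in the nucleus. In the pituitary they close a feedback loop, because corticotrophs make adrenocorticotropic hormone from the precursor Pomc and glucocorticoids restrain them. Melanotrophs of the intermediate lobe also make Pomc, but in rodents they are held mainly by dopamine. The mineralocorticoid receptor, encoded by Nr3c2, binds the same hormones, and Hsd11b1 encodes the enzyme that regenerates active hormone inside cells.

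The palindromic DNA element bound by the receptor is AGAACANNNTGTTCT, in which N is any base, and each arm is the hexamer AGAACA or its complement read backwards. Both strands were searched in the 250 bases before each start site in the RefSeq promoter table (GRCm38.p6). The table held 12 promoters of 5 of the 8 genes (Nr3c2, Fkbp5, Tsc22d3, Sgk1 and Hsd11b1). The full element was found in 1 of these 12, upstream of Sgk1, and in 3 of all 32851 promoters (0.00913%). A relaxed form, GNACANNNTGTNC, occurred in the same Sgk1 promoter alone among the 12 and in 0.387% of all promoters. The hexamer lay in 4 of the 12 promoters and in 16.1% of all promoters. Below are the Sgk1 promoter with the full element, one of 6 listed for this gene, and the promoter of Fkbp5, a gene whose level differed between sets in the same direction in most classes, in which none of the 3 forms was found. The capitals mark the full element and a further hexamer, with the full element starting 189 bases before the start site. In the GENCODE vM21 annotation of GRCm38, Sgk1 spans 21882184 to 21999903 on chromosome 10 and Fkbp5 spans 28399094 to 28517527 on chromosome 17, so each window lies inside its gene, before one of the later start sites. Neither window holds an annotated exon base. A match is a description of the sequence, and no binding was measured.
Sgk1, chr10:21993640-21993889, plus strand: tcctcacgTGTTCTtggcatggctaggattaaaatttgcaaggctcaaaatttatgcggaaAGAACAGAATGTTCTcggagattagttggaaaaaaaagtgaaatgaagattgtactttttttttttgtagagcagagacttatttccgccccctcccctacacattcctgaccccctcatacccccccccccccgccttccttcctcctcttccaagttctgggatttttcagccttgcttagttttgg
Fkbp5, chr17:28486150-28486399, minus strand: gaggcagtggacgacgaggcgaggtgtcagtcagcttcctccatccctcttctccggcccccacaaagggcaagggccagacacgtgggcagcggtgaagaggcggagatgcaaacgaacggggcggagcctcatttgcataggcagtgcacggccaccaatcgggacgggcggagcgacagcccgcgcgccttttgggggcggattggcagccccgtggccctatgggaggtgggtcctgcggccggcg

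The matrix held 346690898 UMIs in 40406 barcodes, with 81621358 to 92665029 UMIs per set and median UMIs per barcode of 7167 to 8070.5. After filtering and removal of doublets 36207 cells were kept, and 156 of 40249 distinct barcode sequences (0.388%) occurred in 2 or more sets. Clusters were named from marker genes, and the 12 classes that had 20 or more cells in each set were compared. They held 32197 cells: 13177 somatotroph-like, 8154 lactotroph-like, 2521 corticotroph-like, 2021 stem/folliculostellate-like, 1682 macrophage/microglia-like, 1238 endothelial-like, 992 thyrotroph-like, 698 melanotroph-like, 666 gonadotroph-like, 477 T/NK-like, 435 fibroblast-like and 136 B-cell-like cells. Levels are CPM, the counts of a gene scaled to all UMIs of the class. Hormone transcripts took 44.4% of the UMIs of somatotroph-like cells, 22.2% in lactotroph-like cells and 3.89% in T/NK-like cells, which lowers every other gene's CPM in the cells that make most hormone. For each of the 8 genes whose order of classes changed, levels are therefore also given with 7 hormone genes left out of the totals. Genes of the other lists are given in CPM only.

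Of the 8 genes, 5 had their highest level in the same class in all 4 sets. Nr3c1, Fkbp5 and Cebpd led in corticotroph-like cells, where 4.46% of 16378 tested genes led. Nr3c2 led in somatotroph-like cells, as did 0.623% of tested genes, and Sgk1 in endothelial-like cells, as did 3.97%. Over all classes 37.6% of tested genes led in 1 class in all 4 sets. Tsc22d3, Hsd11b1 and Zbtb16 had no such class: the top class of Tsc22d3 and of Hsd11b1 changed in 1 set, and that of Zbtb16 was split between somatotroph-like and fibroblast-like cells. The span between the highest and the lowest class was narrowest for Fkbp5 (7.39-fold) and widest for Hsd11b1, also with hormone genes left out (6.32-fold and 271-fold). The Hsd11b1 span is not a measure of expression in the lowest class, somatotroph-like cells, because its level lay below the estimate for free RNA.

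**Figure D1:**
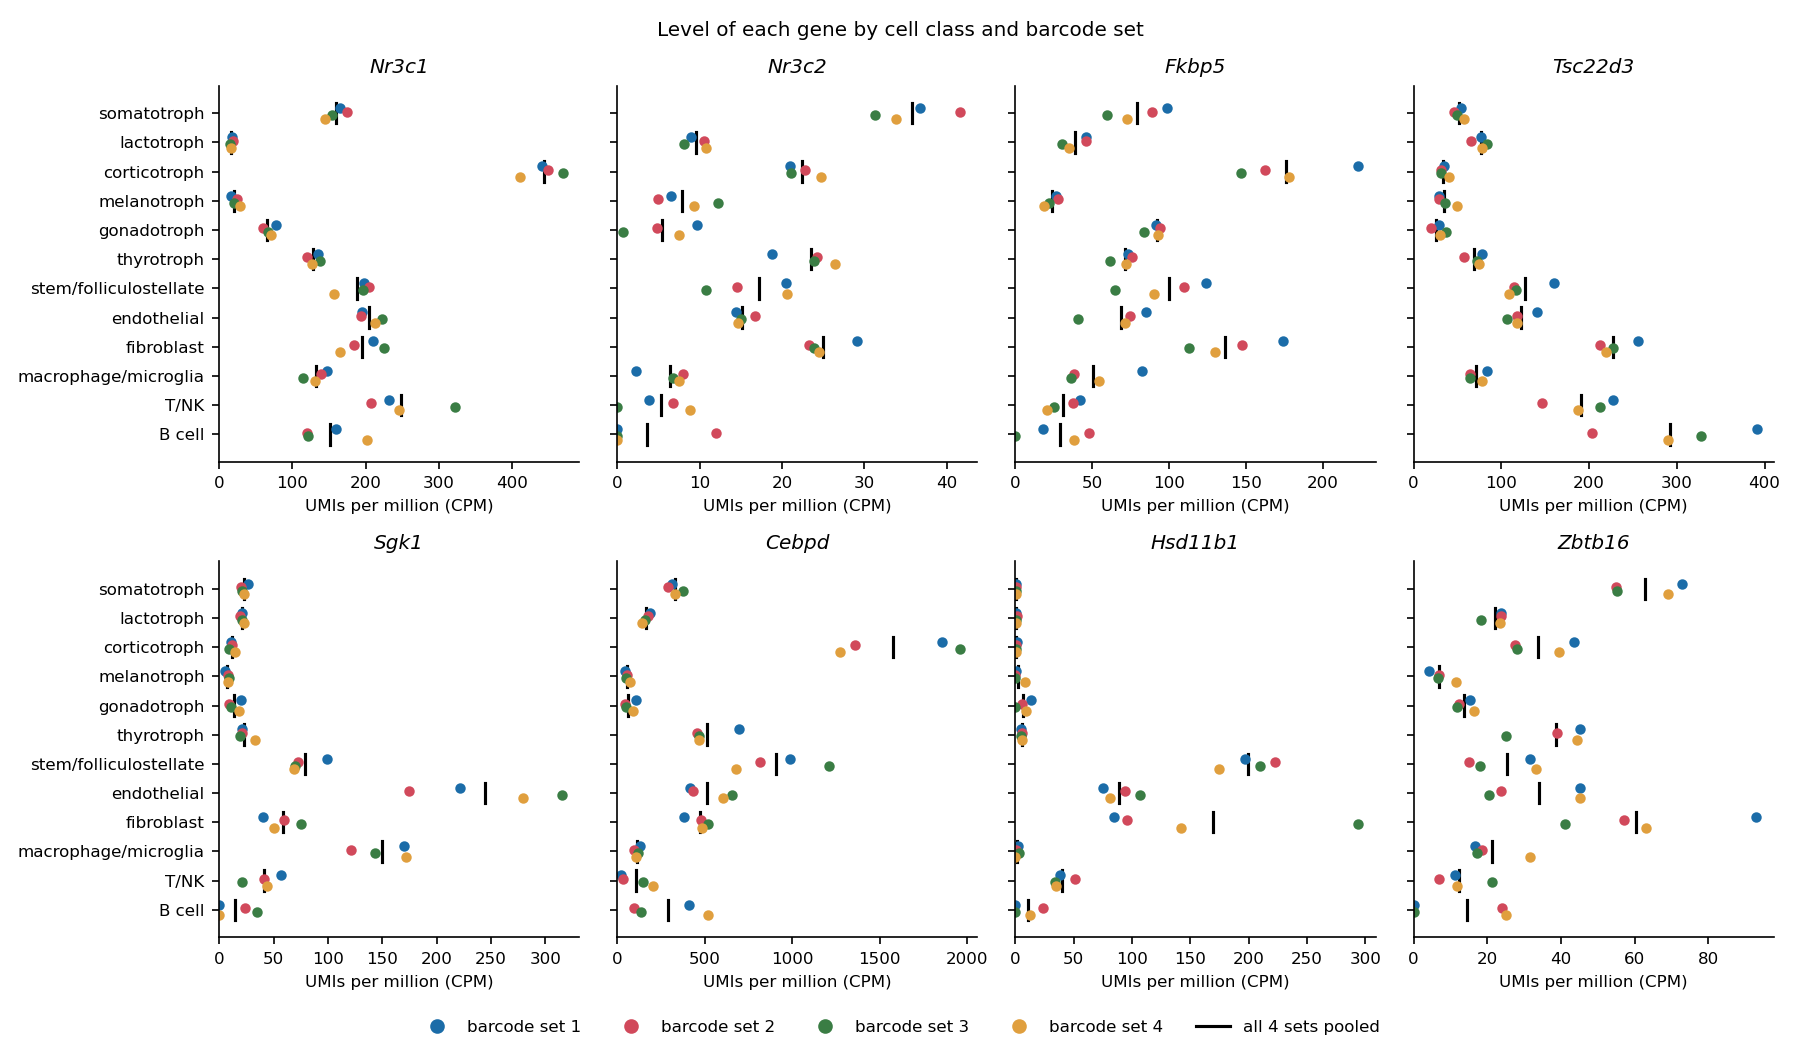
Level of each of the 8 genes in CPM (horizontal axis, linear, a separate scale in each panel) in 12 cell classes. Dots are the 4 barcode sets and the black line is the level of all sets pooled. Nr3c1, Fkbp5 and Cebpd lie farthest right in corticotroph-like cells, Sgk1 in endothelial-like cells, and Hsd11b1 lies near 0 in the 6 hormone-making classes, where no set exceeds 13.5 CPM.

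Nr3c1, the glucocorticoid receptor gene (chromosome 18, 39410545 to 39519421, minus strand), stood highest in corticotroph-like cells and was far lower in the other Pomc-making class. In corticotroph-like cells its level was 441, 449, 469 and 411 CPM in sets 1 to 4, and in melanotroph-like cells it was 15.7, 24.6, 19.7 and 28.4 CPM. The classes did not overlap, and the pooled level was 21.2-fold higher in corticotroph-like cells, from 14.5-fold in set 4 to 28.2-fold in set 1. At least 1 Nr3c1 UMI was found in 90.3% of corticotroph-like cells and in 12.8% of melanotroph-like cells, whose median depths were 7354 and 8633 UMIs. With every cell thinned to 1000 UMIs, which left out 8 corticotroph-like and 26 melanotroph-like cells, the shares were 35.7% and 1.34%. Both classes make Pomc, at 55053 CPM in corticotroph-like and 182700 CPM in melanotroph-like cells.

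The same contrast separated the main hormone classes. Nr3c1 was at 165, 175, 155 and 145 CPM in somatotroph-like cells of sets 1 to 4, and at 17.3, 18.7, 14.9 and 16.4 CPM in lactotroph-like cells. The somatotroph-like level was 9.54-fold higher, and at least 8.79-fold higher in each set. Thyrotroph-like cells had 128 CPM and gonadotroph-like cells 65.7 CPM. Outside the hormone lineages the pooled level was 249 CPM in T/NK-like, 205 in endothelial-like, 196 in fibroblast-like, 188 in stem/folliculostellate-like, 152 in B-cell-like and 133 in macrophage/microglia-like cells. The set ranges of neighbouring classes in this group overlapped, and their order is not resolved. With hormone genes left out of the totals, corticotroph-like cells stayed first at 481 CPM, somatotroph-like cells moved to the second place at 287 CPM, and melanotroph-like and lactotroph-like cells stayed last at 26.5 and 21.5 CPM.

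The low levels were set against free RNA, the transcripts shared among droplets. Its amount was estimated from the hormone transcripts in T/NK-like cells, which should make none, as 9.79% to 17.9% of a cell's UMIs in the 4 sets. That share of the average profile would carry 16.02 to 26.1 CPM of Nr3c1. The Nr3c1 level of melanotroph-like and lactotroph-like cells was not above this estimate in all sets, and that of the other 10 classes was. T/NK-like cells had a median of 2115 UMIs, and the same share was applied to deeper classes. It was too high there at least for Hsd11b1, at 0.457 CPM in somatotroph-like cells against an estimate of 2.42 CPM. A level at or below the estimate therefore does not show that the transcripts are free RNA.

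Nr3c2, the mineralocorticoid receptor gene, followed another order. Somatotroph-like cells had 36.7, 41.7, 31.3 and 33.8 CPM in sets 1 to 4, and lactotroph-like cells had 9.01, 10.6, 8.09 and 10.8 CPM. The pooled level was 3.76-fold higher in somatotroph-like cells and the sets did not overlap. Fibroblast-like (24.9 CPM), thyrotroph-like (23.5 CPM) and corticotroph-like cells (22.5 CPM) came next, with overlapping set ranges. Gonadotroph-like, macrophage/microglia-like, T/NK-like and B-cell-like cells were not above the free RNA estimate in all sets. The T/NK-like and B-cell-like values rest on 6 counts and 1 count. Leaving out hormone genes raised the somatotroph-like level to 64.4 CPM and kept it first. When cells were classed by marker score in place of clusters, Nr3c2 no longer led in 1 class in all sets.

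Hsd11b1, which encodes the enzyme that reactivates glucocorticoid from its inert form, was found mainly outside the hormone-making cells. Stem/folliculostellate-like cells had 197, 223, 210 and 175 CPM in sets 1 to 4, whereas corticotroph-like cells had 1.54, 0.821, 0.752 and 0.706 CPM. The pooled level in stem/folliculostellate-like cells was 211-fold that of corticotroph-like cells, in which only 19 counts were seen. Fibroblast-like cells had 84.4, 95.9, 294 and 142 CPM and were above the stem/folliculostellate-like cells in set 3 only. Without set 3 Hsd11b1 led in stem/folliculostellate-like cells in each remaining set. Endothelial-like cells had 88.7 CPM and T/NK-like cells 39.7 CPM. Somatotroph-like, lactotroph-like and corticotroph-like cells did not exceed 1 CPM in the pooled sets and lay below the free RNA estimate of 2.42 CPM. In stem/folliculostellate-like cells 57.2% of cells held a UMI of Hsd11b1, against 0.754% of corticotroph-like cells at nearly the same median depth. The first 3 classes without hormone genes were stem/folliculostellate-like (223 CPM), fibroblast-like (192 CPM) and endothelial-like cells (96.6 CPM). The gene shares its locus with Gm38118 on the same strand, and with Lamb3 and an antisense RNA on the opposite strand. Reads of Gm38118 cannot be told apart from those of Hsd11b1 by position. Use of strand in counting would set apart the genes on the opposite strand, but the labels and headers do not state it.

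The stem/folliculostellate-like class was made of a cluster of 1490 cells and one of 531 cells with a median of 1033 UMIs. Hsd11b1 was at 224 CPM in the first and at 66.9 CPM in the second. In the first cluster alone the sets lay between 220.04 and 229.9 CPM, a narrower range than in the whole class. Of the other genes for local hormone supply, Hsd11b2, whose enzyme inactivates glucocorticoid, had 17 counts in all 12 classes. H6pd, which supplies the cofactor of the Hsd11b1 enzyme, led in fibroblast-like cells at 58.4 CPM, against 18.9 CPM in endothelial-like cells.

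Fkbp5 encodes a co-chaperone that lowers hormone binding by the receptor, and receptor activity raises its transcript. Corticotroph-like cells had 223, 162, 147 and 178 CPM in sets 1 to 4, and melanotroph-like cells had 26.6, 27.6, 21.6 and 18.5 CPM. The pooled level was 7.39-fold higher in corticotroph-like cells and the sets did not overlap. Fibroblast-like cells came next with 175, 148, 113 and 130 CPM, and their set range overlapped that of corticotroph-like cells. Stem/folliculostellate-like cells had 100.3 CPM, gonadotroph-like cells 91.9 CPM, somatotroph-like cells 79.5 CPM and lactotroph-like cells 38.8 CPM. Gonadotroph-like cells, whose Nr3c1 level was below that of somatotroph-like cells, had 1.16-fold the somatotroph-like level of Fkbp5 (95% interval 1.08 to 1.24). In the single sets that ratio ran from 0.926 to 1.40 and was above 1 in 3 of the 4. The order turned round with hormone genes left out of the totals, at 107 CPM in gonadotroph-like cells (97.6 to 109.5 over the sets) and 143 CPM in somatotroph-like cells (112 to 177), so this difference depends on the scaling. T/NK-like cells, whose Nr3c1 level was 249 CPM, had 30.9 CPM of Fkbp5 from 35 counts. With hormone genes left out of the totals, the first 3 classes for Fkbp5 were corticotroph-like (192 CPM), fibroblast-like (155 CPM) and somatotroph-like cells.

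Cebpd encodes a transcription factor of the C/EBP family that responds to glucocorticoids and to inflammatory signals. It had 1858, 1361, 1962 and 1274 CPM in corticotroph-like cells of sets 1 to 4, and 985, 818, 1211 and 680 CPM in stem/folliculostellate-like cells, the second class. Corticotroph-like cells were 1.73-fold higher in the pooled sets. The corticotroph-like level was 29.2-fold that of melanotroph-like cells, which had 53.8 CPM. In totals without hormone genes, corticotroph-like and stem/folliculostellate-like cells stayed first at 1710 and 1016 CPM, and somatotroph-like cells came next at 592 CPM. Melanotroph-like cells were not above the free RNA estimate in all sets, and neither were gonadotroph-like or T/NK-like cells. A list of 20 immediate early genes, which many stimuli and tissue handling induce, summed to 44388 CPM in corticotroph-like and 53221 CPM in stem/folliculostellate-like cells, the highest 2 classes, against 17462 CPM in somatotroph-like and 17253 CPM in melanotroph-like cells. The part of such genes in the Cebpd levels was not tested.

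Cebpd also differed within classes where the receptor gene hardly did. The somatotroph-like class was made of 3 clusters, of which cluster 10 was led by the sterol synthesis genes Idi1, Lss and Hmgcs1 and held the immediate early gene Egr2 among its top genes. Cebpd was at 562 CPM in cluster 10, 259 CPM in cluster 1 and 158 CPM in cluster 2. Over the same clusters Nr3c1 was at 172, 156 and 149 CPM and Fkbp5 at 82.1, 77.4 and 79.6 CPM. The 4 sets of cluster 10 lay between 526 and 638 CPM of Cebpd, above all sets of the other somatotroph-like clusters. In the lactotroph-like class cluster 7 had 256 CPM of Cebpd, against 63.2 CPM in cluster 0, and again the sets did not overlap. Without hormone genes in the totals, Cebpd was at 905, 484 and 309 CPM in clusters 10, 1 and 2, and at 314 and 85.8 CPM in clusters 7 and 0. None of the 8 genes was among the genes used for clustering. Immediate early genes such as Egr2 were not left out by that rule, so the clusters may rest partly on genes that vary with Cebpd. This was not tested.

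**Figure D2:**
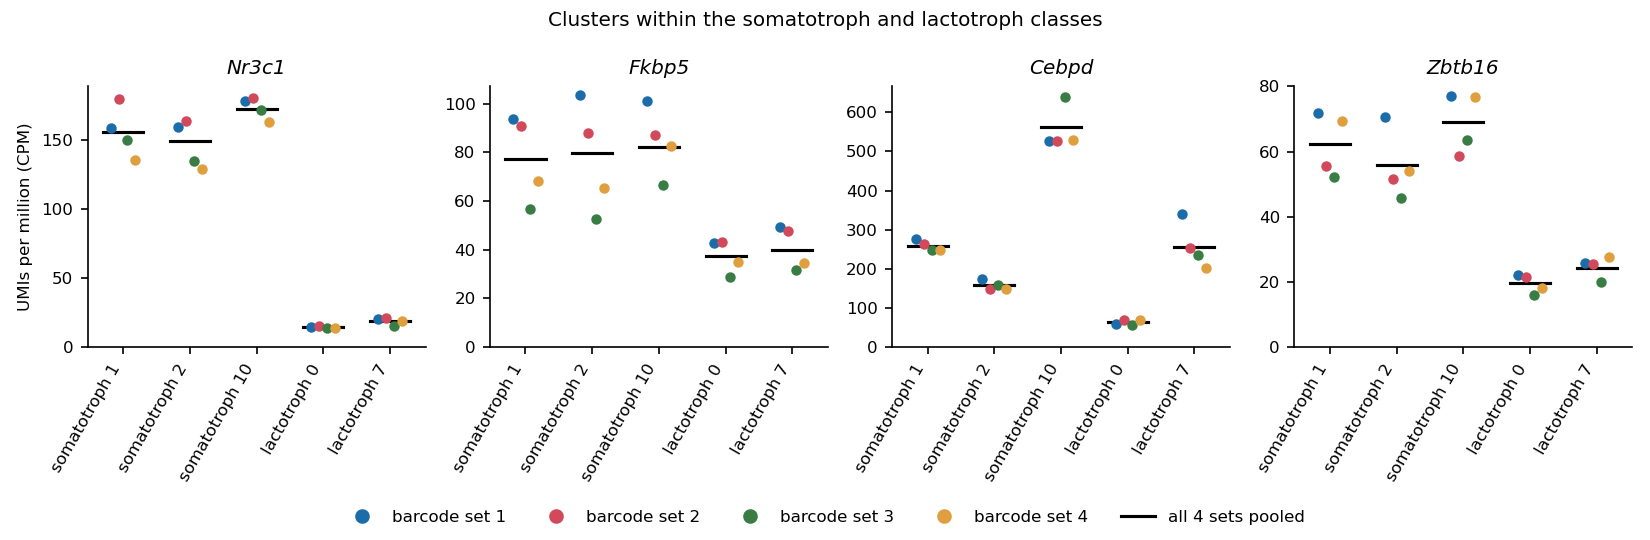
Levels in CPM (vertical axis, from 0, a separate scale in each panel) of 4 genes in the 3 somatotroph-like and 2 lactotroph-like clusters, numbered as in the clustering. Dots are the 4 barcode sets and lines the pooled level. Cebpd differs between clusters of one class, at 562, 259 and 158 CPM in somatotroph-like clusters 10, 1 and 2, whereas Fkbp5 has its set 3 dot lowest in all 5 clusters.

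Sgk1 encodes a kinase that acts on ion channels and transporters and is a classical target of both receptors. It was highest in endothelial-like cells, with 221, 174, 315 and 279 CPM in sets 1 to 4, and then in macrophage/microglia-like cells, with 170, 122, 143 and 172 CPM. The pooled levels differed 1.63-fold, and the lowest endothelial-like set was above the highest macrophage/microglia-like set by a small margin (174.5 against 171.8 CPM). Stem/folliculostellate-like cells had 79.2 CPM. Corticotroph-like cells, which led for Nr3c1, had only 11.6 CPM of Sgk1, and melanotroph-like cells had 7.27 CPM. Among hormone-making classes the highest level in CPM was 23.3, in thyrotroph-like cells. Leaving out hormone genes put somatotroph-like cells highest among them at 40.8 CPM, against 27.1 CPM in lactotroph-like and 26.2 CPM in thyrotroph-like cells, while endothelial-like (266 CPM) and macrophage/microglia-like cells (163 CPM) stayed first. Endothelial-like cells had a summed immediate early gene level of 40038 CPM and macrophage/microglia-like cells one of 21945 CPM, and their part in the Sgk1 levels was not tested.

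Tsc22d3 encodes GILZ, a leucine zipper protein that mediates part of the anti-inflammatory action of glucocorticoids. B-cell-like cells had 392, 203, 328 and 290 CPM in sets 1 to 4 on 81 counts. Fibroblast-like cells had 256, 213, 227 and 219 CPM, and were above B-cell-like cells in set 2. T/NK-like cells had 191 CPM, stem/folliculostellate-like cells 127 CPM and endothelial-like cells 122 CPM. Corticotroph-like cells were near the bottom, with 35.1, 30.8, 30.8 and 40.2 CPM, and lactotroph-like cells had 77.1, 65.2, 83.5 and 77.9 CPM. Thus in the pooled sets the corticotroph-like level of Tsc22d3 was 0.441 times the lactotroph-like level (95% interval 0.407 to 0.479), whereas the receptor gene ran the other way between these 2 classes. When hormone genes were left out, B-cell-like (324 CPM), fibroblast-like (258 CPM) and T/NK-like cells (199 CPM) stayed first, and corticotroph-like (36.7 CPM) and gonadotroph-like cells (30.5 CPM) were last. All 12 classes were above the free RNA estimate in all sets. Keeping the called doublets lowered the B-cell-like level to 186 CPM, and classing by marker score lowered it to 76.9 CPM.

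Zbtb16 encodes PLZF, a zinc finger factor strongly induced by glucocorticoids in several human cell types. Somatotroph-like cells had 73.0, 55.0, 55.1 and 69.1 CPM in sets 1 to 4, and fibroblast-like cells had 93.1, 57.0, 41.0 and 63.1 CPM. Each class led in 2 of the 4 sets. Thyrotroph-like cells had 38.6 CPM, endothelial-like cells 34.0 CPM and corticotroph-like cells 33.8 CPM. Melanotroph-like cells were lowest at 6.82 CPM. With hormone genes left out of the totals somatotroph-like cells led in all 4 sets with 113 CPM, against 68.6 CPM in fibroblast-like cells. The same class also led with the doublets kept. It led under the stricter cell filter too, but no fibroblast-like class was left to compare there.

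In pooled CPM melanotroph-like cells were among the lowest 3 of the 12 classes for 6 genes: Nr3c1, Fkbp5, Tsc22d3, Sgk1, Cebpd and Zbtb16. For Fkbp5, Sgk1, Cebpd and Zbtb16 they were the lowest class. Their median depth was 8633 UMIs, against 7325 UMIs over all kept cells.

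The response genes did not share one order over the classes. Over the 12 classes the Pearson correlation with Nr3c1, on log2(CPM + 1), was 0.660 for Cebpd, 0.553 for Fkbp5, 0.488 for Zbtb16, 0.396 for Hsd11b1, 0.381 for Sgk1 and 0.335 for Tsc22d3. These describe 12 points that share libraries, cell depth and hormone content. Among 14600 genes the pattern most like that of Nr3c1 belonged to Spata13, at a correlation of 0.780. For Cebpd it was the immediate early gene Egr2 at 0.897. For Sgk1 it was the interferon-induced gene Ifit3 at 0.940, for Nr3c2 Gm48700 at 0.922, for Tsc22d3 Rsl24d1 at 0.933, for Hsd11b1 Gm26632 at 0.943 and for Zbtb16 Strip2 at 0.887. The closest gene to Fkbp5 was Gm49839 at 0.896. It lies inside Fkbp5 on the same strand in GRCm38 (chromosome 17, 28457484 to 28461095), so reads of both genes cannot be told apart by position.

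Other genes known to respond to glucocorticoids in various tissues were spread over the classes. Of a list of 30, 29 had enough counts and 15 led in 1 class in all 4 sets, a share to be set beside the 37.6% of all tested genes. Stem/folliculostellate-like cells held 6 of the 15, where 4.57% of all tested genes led. Fibroblast-like cells held 3 (3.97% of all tested genes), and corticotroph-like and T/NK-like cells 2 each (4.46% and 3.77%). Endothelial-like and macrophage/microglia-like cells held 1 each (3.97% and 4.15%). In stem/folliculostellate-like cells Lcn2, which encodes a secreted iron-scavenging protein, had 1026 CPM, against 191 CPM in endothelial-like cells. Pdk4, a kinase gene that restrains glucose oxidation, had 200.5 CPM in the same class and 40.6 CPM in endothelial-like cells. Zfp36l2, an RNA decay factor gene, led in T/NK-like cells at 1643 CPM, 3.84-fold above the next class. Mertk, a receptor gene for the uptake of dying cells, led in macrophage/microglia-like cells at 136 CPM, 4.15-fold above the next class. The 2 that led in corticotroph-like cells were Errfi1, an inhibitor of EGF receptor signalling, at 688 CPM against 380 CPM in stem/folliculostellate-like cells, and Hif3a, a hypoxia-related factor gene, at 12.7 CPM against 8.85 CPM in somatotroph-like cells. Hormone transcripts took 44.4% of somatotroph-like and 7.94% of corticotroph-like UMIs, so the Hif3a order of these classes depends on the scaling. Errfi1 and Hif3a were named for leading in CPM in the same class as Nr3c1.

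**Figure D3:**
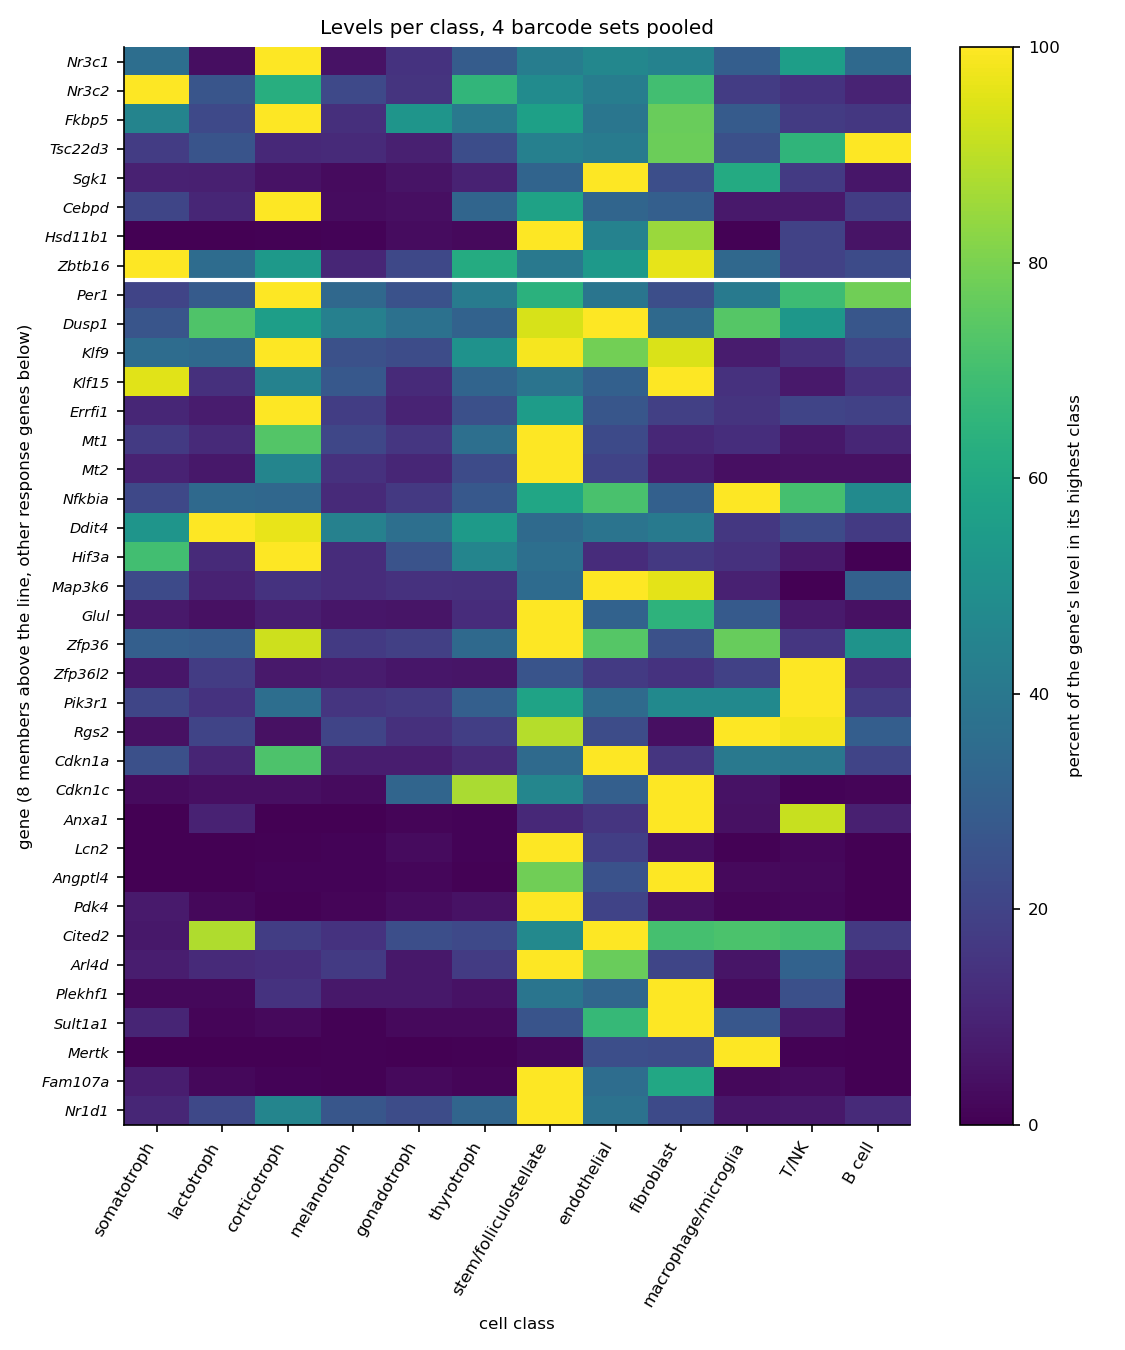
Level of the 8 genes (above the white line) and of 29 other glucocorticoid response genes in 12 cell classes, 4 sets pooled, as percent of each gene's level in its highest class (colour, 0 to 100). Bright cells lie in many columns: of the 29 genes below the line, 6 led in stem/folliculostellate-like cells in all 4 sets and 2 in corticotroph-like cells. Of all tested genes 4.57% and 4.46% led in these 2 classes.

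Of 10 tested chaperone, transporter and steroid enzyme genes 4 led in 1 class in all sets, beside 37.6% of all tested genes. Fkbp4, the co-chaperone that favours nuclear transport of the receptor, led in stem/folliculostellate-like cells at 218 CPM, 1.46-fold above melanotroph-like cells. Bag1, a chaperone cofactor gene, led in gonadotroph-like cells at 201 CPM, 1.32-fold above the next class. Somatotroph-like cells had 139 to 172 CPM of Bag1 in the sets. Hormone transcripts took 44.4% of their UMIs and 14.4% of gonadotroph-like UMIs, so the Bag1 order depends on the scaling. H6pd was described above, and Abcb1b, a steroid-exporting pump gene, led in T/NK-like cells at 88.2 CPM. Of 11 receptor coregulator genes Nrip1, a corepressor gene, was the only one to lead in 1 class in all sets, in T/NK-like cells at 269 CPM. This too stands beside the 37.6% of all tested genes. The genes of the corticotroph loop marked the class named by them: Crhr1, the receptor for the hypothalamic factor CRH, was at 159 CPM in corticotroph-like cells, 18.5-fold above melanotroph-like cells, and Avpr1b, the vasopressin receptor gene, was at 55.1 CPM. Both are naming markers of the class, and their levels are a check of the name only.

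The sets differed for several of the 8 genes within the same cell class. A gene was called in a class when its highest set exceeded its lowest by 1.5 times or more and their counting intervals did not overlap. This held for 26 of 86 tested pairs of gene and class, beside 10.3% of all 152206 tested pairs. Among pairs with at least 100 counts it held for 23 of 70, beside 12.2% of all such pairs. The calls were 8 of 12 classes for Cebpd, 6 of 11 for Fkbp5, 5 of 10 for Zbtb16, 2 of 10 for Nr3c2, 2 of 8 for Hsd11b1, 1 of 11 for Sgk1, and 1 of 12 each for Nr3c1 and Tsc22d3. Whether these differences follow diet, the animals pooled or the library cannot be told apart. Without set 3 the calls were 11 of 86, beside 7.43% of all pairs. Without set 1, 2 or 4 they were 19, 24 and 22, beside 7.35%, 6.76% and 6.43% of all pairs.

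Fkbp5 differed between the sets in the same direction in most classes. It was lowest in set 3 in 9 of 11 tested classes, and in set 4 in the other 2. Only 1.48% of 11996 genes tested in enough classes were lowest in set 3 in at least 8 classes. Set 1 was above set 3 in all 11. In somatotroph-like cells the level was 98.8, 89.0, 59.4 and 72.9 CPM in sets 1 to 4, with set 1 1.66 times set 3 (95% interval 1.58 to 1.76). The middle 90% of 11527 genes in these cells had ratios of set 1 to set 3 between 0.844 and 1.38. Stem/folliculostellate-like cells had 124, 110, 64.9 and 90.3 CPM, a ratio of set 1 to set 3 of 1.91 (1.65 to 2.22). Endothelial-like cells had 85.1, 74.6, 41.0 and 71.5 CPM, a ratio of 2.08 (1.60 to 2.71). Macrophage/microglia-like cells had 82.4, 38.1, 36.2 and 54.2 CPM, a ratio of 2.27 (1.64 to 3.18). The interval of the ratio was above 1 in 7 of the 10 classes with counts enough for a ratio. It included 1 in melanotroph-like, gonadotroph-like and thyrotroph-like cells, where the ratios were 1.23, 1.10 and 1.19.

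The low level of Fkbp5 in set 3 also held inside the clusters of the somatotroph-like class. In somatotroph-like cluster 1 it was 93.7, 90.8, 56.7 and 68.3 CPM in sets 1 to 4, in cluster 2 it was 104, 88.1, 52.6 and 65.3 CPM, and in cluster 10 it was 101, 87.1, 66.5 and 82.5 CPM. Set 1 was highest and set 3 lowest in each of these 3 clusters. Not every cluster of other classes had set 3 lowest. Without hormone genes in the totals, Fkbp5 was at 108, 38.5, 38.8 and 64.3 CPM in macrophage/microglia-like cluster 12. Cluster 18 of that class had 39.6, 42.2, 30.2 and 35.7 CPM, and cluster 19 had 34.0, 56.0, 62.7 and 81.3 CPM. Stem/folliculostellate-like cluster 6 had 133, 117, 68.8 and 108 CPM, and cluster 13 had 176, 80.8, 100.3 and 116.8 CPM. The estimated share of free RNA was highest in set 1 (17.9%) and 12.6% in set 3. After subtraction of free RNA set 1 remained above set 3 in 9 of 11 classes. With hormone genes left out of the totals set 1 was above set 3 in all 11.

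**Figure D4:**
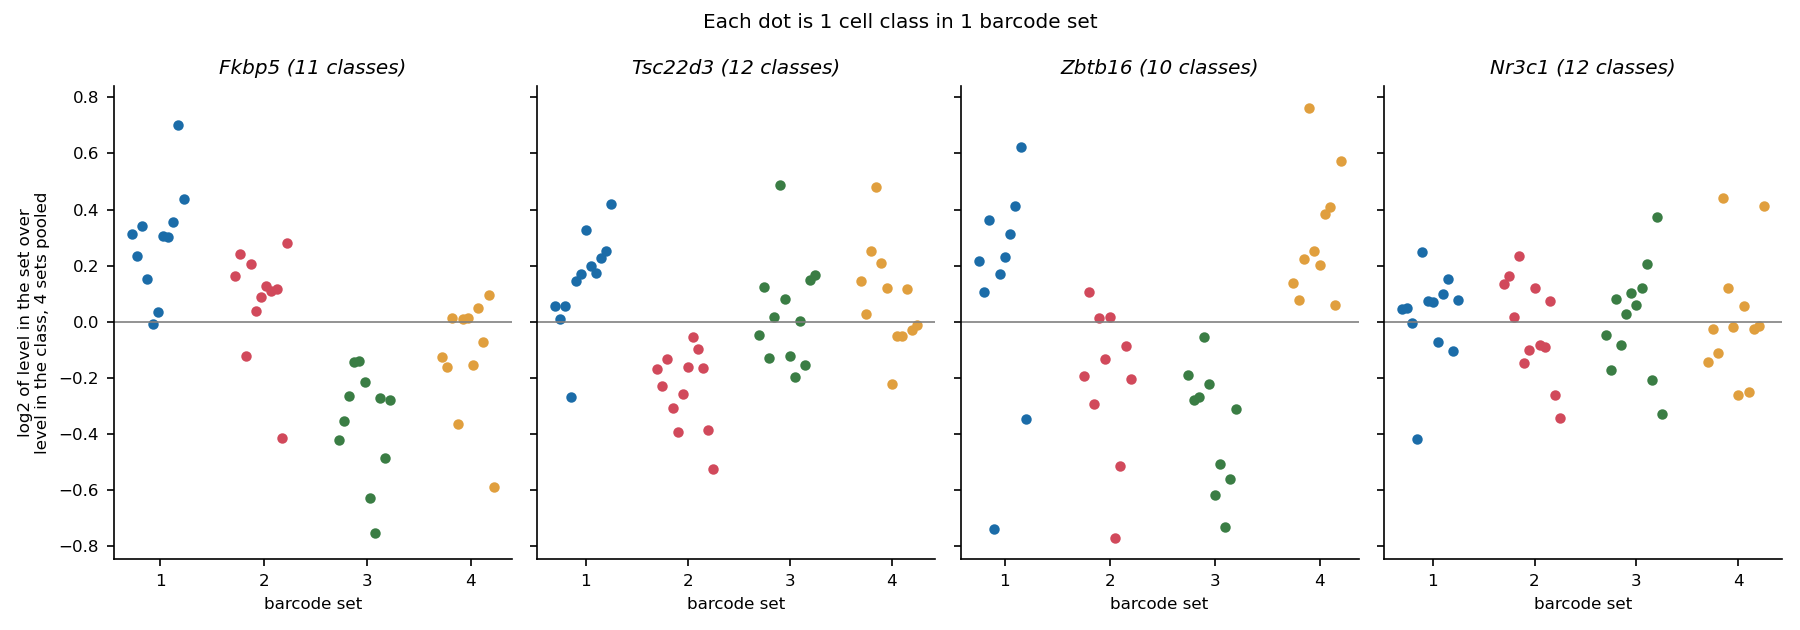
Log2 of the level in each barcode set over the pooled level of the class (vertical axis) for 4 genes. Each dot is 1 cell class in 1 set and the grey line marks no difference. For Fkbp5 the set 3 dots lie below the line in all 11 classes, for Tsc22d3 the set 2 dots lie below it in all 12, for Zbtb16 most dots of sets 1 and 4 lie above it, and for Nr3c1 each set has dots on both sides.

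The other genes did not follow the full set order of Fkbp5, though Zbtb16 shared its difference between sets 1 and 3. Tsc22d3 was lowest in set 2 in 10 of 12 classes, as was the case in at least 8 classes for 1.7% of all genes. Set 1 was above set 2 in all 12 classes with a median ratio of 1.26, and the interval was above 1 in 7. In lactotroph-like cells set 2 had 65.2 CPM and the other sets had 77.1 to 83.5 CPM. Zbtb16 was higher in set 4 than in set 3 in all 10 tested classes, with a median ratio of 1.65, and higher in set 1 than in set 3 in 8 of 10. Its ratio of set 1 to set 3 had an interval above 1 in 7 of the 9 classes with counts enough for a ratio, at a median of 1.55. In endothelial-like cells it had 45.3, 23.8, 20.5 and 45.2 CPM in sets 1 to 4, so that sets 1 and 4 stood apart from sets 2 and 3. In stem/folliculostellate-like cells it had 31.6, 14.95, 17.9 and 33.3 CPM, with the same split. In lactotroph-like cells set 2 was with sets 1 and 4, at 23.8, 23.8, 18.3 and 23.4 CPM. Among genes with at least 100 counts in both sets, the median ratio of set 4 to set 3 was 1.03 in somatotroph-like and 1.01 in lactotroph-like cells. It was 1.01 in endothelial-like and 0.916 in stem/folliculostellate-like cells. In the same order of classes, 95% of such genes lay below 1.25, 1.22, 1.28 and 1.28. The lowest Zbtb16 ratio over the 10 classes was 1.25.

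Cebpd differed between sets in most classes, with set 2 highest in none of the 12 and lowest in 5. Set 1 exceeded set 2 with an interval above 1 in 8 of 11 classes, and with one below 1 in 0, at a median ratio of 1.20. The highest set was set 3 in 5 classes, set 1 in 4 and set 4 in 3. In corticotroph-like cells sets 3 and 1 were above sets 2 and 4. In T/NK-like cells it had 22.8, 34.1, 148 and 205 CPM in sets 1 to 4, a span of 9.01-fold on 121 counts. In B-cell-like cells it had 410, 95.7, 138 and 517 CPM on 80 counts. In stem/folliculostellate-like cells set 4 was lowest for Cebpd and had an immediate early gene sum of 40730 CPM, against 56807 to 58194 CPM in the other sets. Their hormone share was 17.9% in set 4 and 5.57% to 10.2% in the other sets, and the part of either in the Cebpd level was not tested.

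Nr3c1, Tsc22d3 and Sgk1 had the fewest calls of the 8 genes. The single call of Nr3c1 was in melanotroph-like cells, where the level lay near the free RNA estimate. In somatotroph-like cells, with 22661 counts, its sets spanned 1.21-fold, and in corticotroph-like cells the lowest set was 411 CPM and the highest 469 CPM. Hsd11b1 was called in fibroblast-like cells, where set 3 was 3.49-fold above set 1, and in gonadotroph-like cells, where set 3 had no count. Sgk1 was called in endothelial-like cells, where set 3 was 1.81-fold above set 2. Nr3c2 was called in stem/folliculostellate-like cells, with 20.5, 14.5, 10.8 and 20.7 CPM, and in gonadotroph-like cells on 52 counts. In the stem/folliculostellate-like cluster of 1490 cells alone Nr3c2 was at 16.9, 13.6, 9.92 and 14.0 CPM, so that sets 2 and 4 were close together there, and the shallow cluster of 531 cells had 35.2 CPM on 109 counts.

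Of 23 other response genes tested in at least 8 classes, Klf15, a metabolic transcription factor gene, was the only one lowest in set 3 in at least 8 classes, in 8 of 10. It was highest in set 4 in 6 of the 10 classes and in set 1 in 3. A gene tested in fewer than 8 classes could not meet this rule. Among such genes, set 3 was lowest for Hif3a in 5 of 6 classes, Fam107a in 4 of 5 and Pdk4 in 4 of 6. It was lowest for Map3k6 in 2 of 6, Plekhf1 in 1 of 6, Anxa1 in 1 of 5 and Mertk in 1 of 4. Sult1a1 and Angptl4, each tested in 8 classes, were lowest in set 3 in 6 and 4 of them. Errfi1, Cdkn1a and Cited2 were lowest in set 2 in at least 8 classes, as Tsc22d3 was, and Nfkbia was highest there. Of 8 tested chaperone and enzyme genes Hsp90aa1, Hsp90ab1 and Fkbp4 were highest in set 2 in at least 8 classes, beside 2.19% of all genes, Ptges3 was highest in set 1 in 8 of 12, and Stip1 was lowest in set 3. These genes were singled out after their values were seen.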

How the data were processed

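Per the file headers, the authors deposited 1 matrix of UMI counts per gene and barcode written by Cell Ranger 8.0.1. The submitters' processing notes also list Seurat, without a role. Genome build and annotation: not given in the sources used here. All gene lists and the 8 genes were chosen with earlier results of these data known.

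A filter of 500 UMIs, 250 genes and 25% mitochondrial UMIs took out 567 barcodes. Scrublet (scanpy 1.11.5) marked 3632 doublets (9.12%, from 6.84% to 10.9% per set), which were removed. Its expected rate of 8% was set after the default rate had marked almost none in 2 sets. Counts were scaled to 10000 per cell and logged. Clusters came from 2000 variable genes without the 8 genes and the lists of chaperone and enzyme, coregulator and other response genes. Of these, 20 genes, Cebpd, Hsd11b1 and Sgk1 among them, would have been used. The lists of immediate early, corticotroph loop and hormone genes were not left out as lists. The Leiden method (igraph 0.11.9) ran at resolution 1.0 on 15 neighbours and 30 principal components, with no integration of sets. Clusters were named where 3 or more markers reached a log2 fold of 0.5 and were detected in 25% of cells. A rival class blocked it only with 3 markers of its own at 0.5 or more of the mean log2 fold. The naming thresholds were set after clusters were seen and before levels of the 8 genes were examined. Names describe clusters rebuilt here. Of the kept cells 3638 stayed unnamed, and 250 pituicyte-like, 89 proliferating and 33 neutrophil-like cells were too few in a set to be compared.

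Counts were summed per class and set. Levels are CPM of the UMI sum, with exact Poisson intervals, and cell shares use Clopper-Pearson intervals (exact), at 95% and for counting error only. A gene led in a class when it was highest there in all 4 sets, with at least 20 counts. All 8 genes are named. Of each other list, up to 5 genes with at least 100 counts were eligible by fold over the next class, plus genes needed to read one of the 8. For likeness, genes had at least 500 counts. The rules were checked on simulated counts. Of 55357 gene identifiers 52081 are in GENCODE vM21, used only for positions and overlaps. Alternatives kept doublets, used a stricter filter (1000 UMIs, 500 genes, 10% mitochondrial), clustered with the 8 genes, used resolution 0.5 or a marker score, left out hormone genes, subtracted free RNA, thinned counts, dropped the count minimum or left out sets in turn. Software was Python 3.11.15 with pandas 2.3.3, scipy 1.17.1 and numpy 2.4.6.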

Additional observations from a re-analysis of the deposited data

Results flagged for a closer look

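In CPM Zbtb16 was higher in an unnamed cluster than in any compared class, in cells that no comparison of the report uses. Cluster 8 (3048 cells) was led by mitochondrial genes, with a median of 1486.5 UMIs and 5.59% mitochondrial UMIs per cell. Zbtb16 was at 79.4 CPM there (95% interval 72.5 to 86.7), against 62.8 CPM in somatotroph-like cells, the highest compared class. With hormone genes left out of the totals the cluster was not above them, at 111 CPM (102 to 122) against 113 CPM. In CPM it was at 107, 62.1, 66.4 and 86.4 CPM in sets 1 to 4, with sets 1 and 4 above sets 2 and 3 as in somatotroph-like cells. Fkbp5 in this cluster was at 146, 108, 64.5 and 80.7 CPM, again lowest in set 3. The integrity of these cells was not tested.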

How the results depend on the processing

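The main count of genes that led in 1 class in all 4 sets was 5 of 8. It was 8 under the stricter cell filter and 1 (Cebpd) with counts thinned to 56154 UMIs in each class and set, where few counts are left. The stricter filter left no fibroblast-like class to compare. The genes gained there, Tsc22d3, Hsd11b1 and Zbtb16, were those that fibroblast-like cells led in at least 1 set of the main setting. The filter thus does not show that these genes lead over fibroblast-like cells. The count was between 4 and 6 under the other settings, and 5 to 6 when each set was left out. The count of gene and class pairs that differed between sets was 26 of 86. It was 5 of 35 with counts thinned, 11 to 24 when each set was left out (lowest without set 3) and 23 to 32 under the other settings. Set 1 stayed above set 3 for Fkbp5 in all tested classes under every setting that kept both sets, except after free RNA subtraction (9 of 11) and with thinned counts (3 of 4). Of 112 level values of the top classes recomputed under alternatives, 63 stayed within the counting interval of the main value and 5 moved by over 1.5 times. These 5 were the B-cell-like level of Tsc22d3 with doublets kept and by marker score, the somatotroph-like levels of Nr3c2 and Zbtb16 without hormone genes, and Nr3c2 with thinned counts (17.8 CPM, against 35.8 CPM). Leaving out 2 named clusters with a median under 1200 UMIs, an alternative chosen after seeing the data, gave 5 and 27. Of the level values, this could change only that of Hsd11b1, and dropping the count minimum could change none. The unchanged values of these settings among the 63 were fixed in advance. No paired analysis was possible because the barcodes carry no replicate number of any library. Depth limits B-cell-like and T/NK-like values most.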

Other observations

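Pituicyte-like cells of the posterior lobe (250 cells, only 6 of them in set 2) had 181 CPM of Nr3c1 (95% interval 161 to 203), 498 CPM of Cebpd and 121 CPM of Tsc22d3. Their level of Hsd11b1 was 10.5 CPM on 17 counts and that of Zbtb16 was 43.8 CPM. Proliferating cells (89 cells) had 124 CPM of Nr3c1 and 77.8 CPM of Fkbp5. Neutrophil-like cells (33 cells) had 13 counts of Nr3c1 and none of Zbtb16, which allows a level of up to 28.4 CPM at the floor of 3 counts.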
